A study of Mus with 3 samples.

Results

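Retinoic acid, the active form of vitamin A, is made, bound, sensed and degraded by a small set of proteins, and 10 genes of this set were examined in single cells of MC38 tumors: Rara, Rarg, Rxra, Rxrb, Crabp2, Cyp26b1, Aldh1a1, Aldh1a2, Rdh10 and Dhrs3. They were taken by name from the 32285 genes of the count table, with earlier results of these data known. All 10 had at least 1 unique molecular identifier (UMI, a counted RNA molecule). The question was which cells of the tumor could make, sense or degrade retinoic acid, and how these genes stood in the 3 genotypes of host mice.

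MC38, a mouse colon cancer line, was grown in mice until day 16. The hosts were wild-type mice (WT), mice of dLck-Cre crossed with a floxed Rara allele (RARα-KO, in which Cre driven by the distal Lck promoter deletes part of the gene in T cells) and CD2-Rara mice (RARα-TG, in which a CD2 promoter drives Rara). The labels give C57BL/6 for all cells, and both C57BL/6 and dLck-Cre mice served as controls in the study, and which of them carried the WT hashtag was not stated. The cells of a genotype carried 1 hashtag antibody each, the sort mixed 30000 CD45.2-positive CD3-positive T cells with 10000 cells of the whole tumor per genotype, and everything was sequenced as 1 pooled 5′ library. Each genotype is therefore 1 sample, the number of mice behind a hashtag was not stated, and differences between genotypes are given with intervals that cover counting error only.

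Retinol enters the pathway when RDH10, an oxidoreductase, turns it into retinaldehyde, and DHRS3 runs this step backwards. The dehydrogenases ALDH1A1 and ALDH1A2 then make retinoic acid, and ALDH1A2 is known for its activity in dendritic cells of the gut. CRABP2 carries retinoic acid to the nucleus, CYP26B1 hydroxylates it for disposal, and the receptors RARα and RARγ sense it as partners of RXRα or RXRβ. Dhrs3 and the Cyp26 genes are known to be induced by retinoic acid itself in many tissues.

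In the GRCm38 (mm10) assembly of RefSeq, Rara (ENSMUSG00000037992) lies on chromosome 11 from 98927800 to 98974942, Rarg (ENSMUSG00000001288) on chromosome 15 from 102234938 to 102257522, Rxra (ENSMUSG00000015846) on chromosome 2 from 27676445 to 27763319 and Rxrb (ENSMUSG00000039656) on chromosome 17 from 34031812 to 34038403. The binding protein gene Crabp2 (ENSMUSG00000004885) lies on chromosome 3 from 87948693 to 87953372 and Cyp26b1 (ENSMUSG00000063415) on chromosome 6 from 84571414 to 84593908. Of the enzymes that set the supply, Aldh1a1 (ENSMUSG00000053279) spans 20492583 to 20643463 on chromosome 19, Aldh1a2 (ENSMUSG00000013584) 71215789 to 71296243 on chromosome 9, Rdh10 (ENSMUSG00000025921) 16105882 to 16132550 on chromosome 1 and Dhrs3 (ENSMUSG00000066026) 144892534 to 144928209 on chromosome 4. The span of Dhrs3 overlaps that of Vps13d, that of Rara overlaps 2 small annotated genes and that of Aldh1a1 overlaps 3, while the other 7 overlap no annotated gene.

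Of 5585 cells, 1927 carried the WT hashtag, 2103 that of RARα-KO and 895 that of RARα-TG, and 3665 of these fell into 7 kinds. In the order WT, RARα-KO and RARα-TG there were 842, 1174 and 113 CD8 T cells, 95, 167 and 111 CD4 Foxp3-negative T cells, 120, 79 and 150 CD4 Foxp3-positive T cells, 77, 126 and 35 macrophages, 48, 36 and 17 dendritic cells, and 10, 37 and 10 neutrophils. The 7th kind, expected to be MC38 cells, did not bear that name out by the fixed markers. Of 10 epithelial markers, Krt8, Krt18 and Epcam among them, 0 were seen in 10% of the cells. All 10 were under 1 CPM (UMIs in 1000000 UMIs of the same cells). Instead 7 of 9 fibroblast and stroma markers were seen in 10% of the cells, with Sparc at 1906 CPM. Genes of the Y chromosome were at 0 to 1.42 CPM against 57.8 to 109 CPM in the other kinds, apart from the 10 WT neutrophils, which held none. These cells, 272 from WT, 127 from RARα-KO and 19 from RARα-TG mice, are called Sparc-high cells. Whether they were MC38 cells or stroma of the host was not tested. They were the deepest kind, with a median of 19337 to 30701 UMIs per cell against 1552 to 7873 in the others, so levels are compared as CPM and not as shares of cells. In barcodes that held free RNA, Rara was at 77.8 CPM, Rarg at 40.7, Crabp2 at 59.2 and each of the other 7 members at 14.8 CPM or less, and the part of free RNA in the levels was not tested.

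Rara, the receptor that was manipulated, was counted in 6 kinds of cells, and the 2 UMIs in 57 neutrophils were under the limit of 3. WT CD8 T cells had 85.4 CPM from 479 UMIs, with an exact 95% counting interval of 77.9 to 93.4. RARα-KO cells had 78.7 CPM (637 UMIs, 72.7 to 85.0) and RARα-TG cells 191 CPM (115 UMIs, 158 to 229). RARα-TG was thus 2.24-fold above WT (log2 1.16, interval 0.85 to 1.46), whereas RARα-KO differed from WT by no more than the counting error (log2 -0.12, -0.29 to 0.06). The deletion leaves a transcript that lacks exon 8, and the 5′ counts do not report that exon, so this check can show the transgene but not the knockout.

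The excess of Rara in RARα-TG was seen in all 3 kinds of T cells. CD4 Foxp3-negative T cells had 77.5, 51.4 and 227 CPM in the order of WT, RARα-KO and RARα-TG, which is kept below, and a ratio of 2.93 for RARα-TG to WT (1.98 to 4.45). On counts thinned to 1000 UMIs per cell the log2 ratio of these cells fell from 1.55 to 0.78 (-0.63 to 2.33), short of 2-fold. CD4 Foxp3-positive T cells had 95.1, 100.3 and 365 CPM, a ratio of 3.84 (2.87 to 5.20, log2 1.94, or 1.15 on thinned counts), and 70.7% of the RARα-TG cells held a Rara UMI against 31.7% in WT. Endogenous and transgenic Rara share these counts. Outside of the T cells, macrophages had 83.3 CPM in WT and 89.4 in RARα-TG (ratio 1.07, 0.617 to 1.81), and Sparc-high cells had 48.4 and 61.4 CPM (ratio 1.27, 0.795 to 1.93). Dendritic cells had 66.4, 67.3 and 24.7 CPM, the last from 3 UMIs (log2 -1.43, -3.79 to 0.27).

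**Figure D1:**
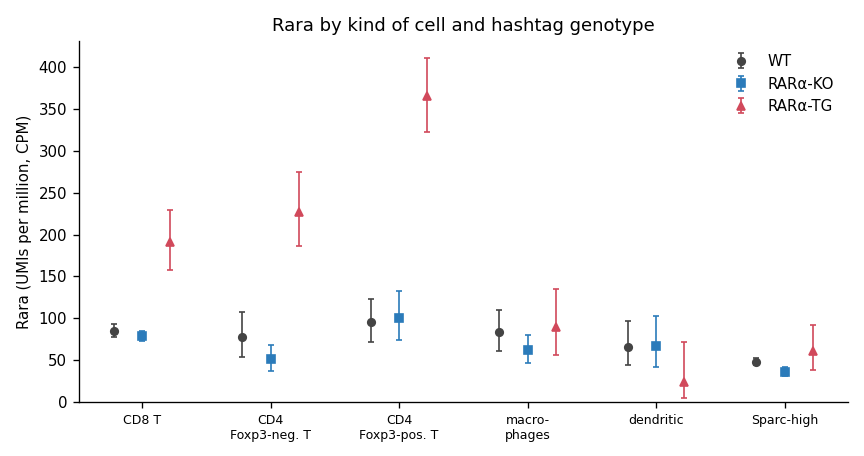
Rara in CPM (vertical axis) in 6 kinds of cells (horizontal axis) for WT, RARα-KO and RARα-TG; points are sums over cells and bars exact Poisson 95% intervals, neutrophils being left out for their 2 UMIs. The RARα-TG points stand at 191 to 365 CPM in the 3 kinds of T cells and at 24.7 to 89.4 CPM in the other kinds.

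Read against all genes, the difference in CD8 T cells placed Rara among the 5.74% of 9516 genes that were at least 2-fold higher in RARα-TG (8.89% were lower), genes being compared where both genotypes together had 20 UMIs. It was the 1 member called of the 4 that passed this minimum. In CD4 Foxp3-negative T cells all 3 members that passed it were called higher (Rara, Rarg and Crabp2), with 3.13% of all genes higher and 4.02% lower. Rarg (8 UMIs in WT, 26 in RARα-TG) and Crabp2 (5 and 49) passed only through their RARα-TG counts. Rxra (6 and 9) and Rxrb (9 and 8) were among those that did not pass, so this count does not describe the members as a set. In CD4 Foxp3-positive T cells 1 of 3 was called higher (Rara), with 4.36% of all genes higher and 3.23% lower. In dendritic cells Rara, the 1 member that passed, was called lower on its 3 UMIs, with 6.58% higher and 9.11% lower. The 2 clusters of this kind were held in unequal shares, the one led by Siglech taking 27 of 48, 9 of 36 and 13 of 17 cells in the same order of genotypes. Within that cluster Rara was at 105 CPM in WT (63.1 to 164) and 34.3 CPM in RARα-TG (7.07 to 100.1), with overlapping intervals.

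For RARα-KO to WT no member of the T cells was called in either direction. These were 0 of 6 in CD8 T cells, where 2.56% of all genes were higher and 2.86% lower, 0 of 4 in CD4 Foxp3-negative T cells (3.32% and 3.57%) and 0 of 3 in CD4 Foxp3-positive T cells (2.51% and 3.32%). Dendritic cells had 0 of 1 (3.25% and 9.74%) and Sparc-high cells 0 of 8 (2.63% and 1.24%). No member passed the minimum in neutrophils. Both contrasts share the WT cells, and the median log2 ratio over all genes lay between -0.12 and 0.13 in every comparison.

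In WT cells alone the order of Rara levels was CD4 Foxp3-positive T cells, CD8 T cells, macrophages, CD4 Foxp3-negative T cells, dendritic cells and Sparc-high cells, and the intervals of the first 5 overlapped. That of Sparc-high cells (43.9 to 53.2 CPM) overlapped only that of dendritic cells (43.8 to 96.6). The kinds were then compared with edgeR's quasi-likelihood test over the sums of the 3 genotypes (3 sums per kind, genotype as a block, Benjamini-Hochberg adjustment over 8067 genes). Rara was higher in CD8 T cells than in Sparc-high cells (log2 1.07 ± 0.32 SE, adjusted p = 0.00755), and likewise in CD4 Foxp3-positive T cells (1.55 ± 0.35, adjusted p = 0.000771), CD4 Foxp3-negative T cells (0.87 ± 0.36, adjusted p = 0.0444) and macrophages (1.02 ± 0.37, adjusted p = 0.0245). Of all genes, 29.0%, 27.5%, 27.4% and 28.9% were called higher in these 4 comparisons. The T cell sums include RARα-TG, where Rara counts hold the transgene, and these pairs were not tested without RARα-TG. In WT alone Sparc-high cells had 48.4 CPM of Rara. CD8 T cells had 85.4, CD4 Foxp3-positive T cells 95.1 and CD4 Foxp3-negative T cells 77.5. The neighbours in the order were not told apart by this edgeR test: CD8 T cells against macrophages gave 0.05 ± 0.35 (adjusted p = 0.930) and CD8 against CD4 Foxp3-positive T cells -0.47 ± 0.33 (adjusted p = 0.395).

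Against the mean of the other kinds, 4 of the 10 members passed edgeR's filter on low counts (Rara, Rarg, Rxrb and Crabp2), and Rara was called in 1 kind, CD4 Foxp3-positive T cells (log2 1.23, adjusted p = 0.00590). There 2 of the 4 members were called higher, with 22.6% of all genes called higher. In CD8 T cells, dendritic cells and neutrophils 0 of 4 were called, with 28.3%, 21.1% and 7.66% of all genes higher. No member was called lower in any kind, where 7.80% of all genes were lower in CD8, 4.38% in CD4 Foxp3-negative and 5.21% in CD4 Foxp3-positive T cells, 2.05% in macrophages, 3.55% in dendritic cells, 18.1% in neutrophils and 16.7% in Sparc-high cells.

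Rara in CD4 Foxp3-positive T cells was also compared without the transgenic cells. Without the RARα-TG sums, Rara in CD4 Foxp3-positive T cells was at 0.71 (edgeR adjusted p = 0.0244), and it was also called higher in CD8 T cells (0.56, adjusted p = 0.0224) and macrophages (0.78, adjusted p = 0.0103) and lower in Sparc-high cells (-0.66, adjusted p = 0.0277). The median log2 ratio of all genes against the mean of the other kinds was 0.38 to 0.51 for every kind but neutrophils (-1.81), the kind with the smallest sums. With the neutrophils left out, an alternative chosen after seeing the data, Rara in CD4 Foxp3-positive T cells was at 0.90 (edgeR adjusted p = 0.0251) and in Sparc-high cells at -0.98 (adjusted p = 0.00802).

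Within the T cells, Rara followed the cluster as well as the genotype. Among WT CD8 T cells it was highest in the clusters led by Xcl1 and Ifng (159 CPM, interval 125 to 198, 88 cells) and by Ifitm1 and Gzma (154 CPM, 125 to 189, 145 cells). It stood at 67.0 CPM (57.3 to 77.9, 309 cells) in the cluster led by Gzmf and Gzmd, which encode granzymes, and at 50.8 CPM (36.0 to 69.8, 57 cells) in the cluster led by Pclaf and Hist1h1b, genes of dividing cells. In RARα-KO the clusters led by Xcl1 and by Ifitm1 were again the highest, with 124 and 154 CPM, and 53.9 CPM in the granzyme cluster. That cluster held 309 of the 842 WT but 99 of the 1174 RARα-KO CD8 T cells, and without it the RARα-KO to WT value for CD8 T cells was -0.29 (-0.49 to -0.09) on the log2 scale. RARα-TG cells reached 331 CPM (371 UMIs in 275 cells) in the cluster led by Laptm4b, Pcsk1 and Klrg1, to which WT gave 12 cells and RARα-KO 3.

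The T cell receptor library gave a grouping that used no gene counts. In WT, CD8 T cells of clonotypes with 10 or more cells (467 cells of 19 clonotypes) had 91.2 CPM of Rara and those of clonotypes with 1 cell (121 cells) had 68.3 CPM, a log2 ratio of 0.42 with an interval from -0.04 to 0.90. In RARα-KO the same groups (675 cells of 24 clonotypes, and 94 cells) had 81.6 and 45.5 CPM, a log2 ratio of 0.84 with an interval starting at 0.25. RARα-TG had no expanded clonotype of that size among CD8 T cells, and its 81 single cells stood at 203 CPM. Which genotype had an interval away from 0 turned on the setting. On counts thinned to 1000 UMIs it was WT (1.46, 0.15 to 3.14) and not RARα-KO (0.89, -0.29 to 2.38), from 5 and 6 UMIs in single cells, and without the granzyme cluster WT stood at 0.70 (0.18 to 1.26). The difference between the genotypes was not tested. The cells of 1 clonotype are related, which the intervals do not take into account.

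**Figure D2:**
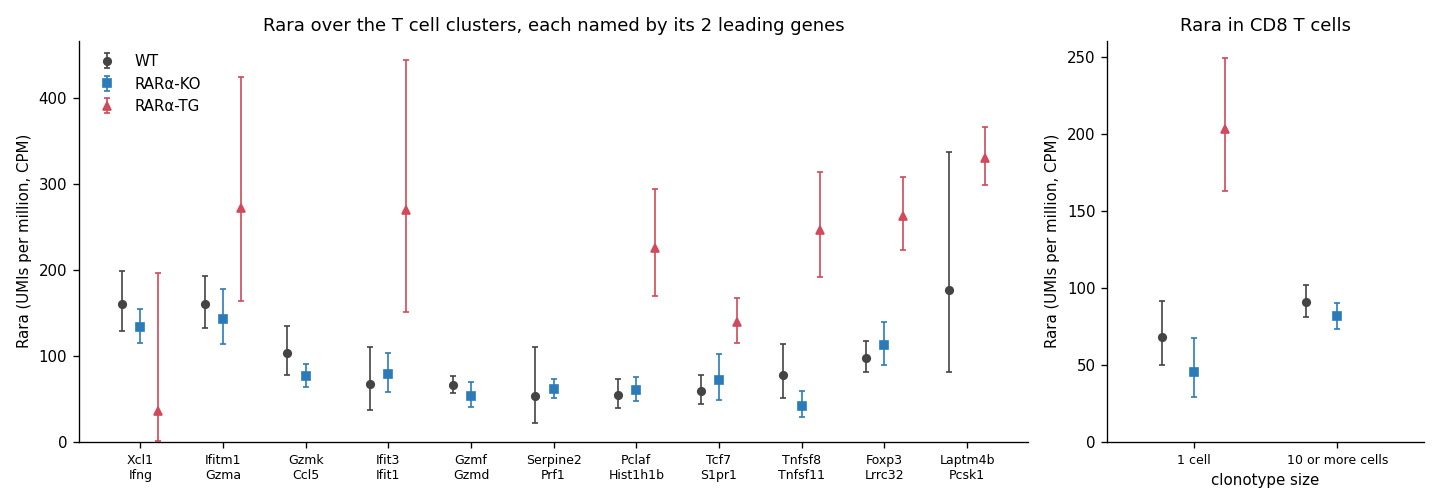
Rara in CPM (vertical axes) over 11 T cell clusters with at least 10 cells of a genotype (left, named by their 2 leading genes) and in CD8 T cells by clonotype size (right); points are sums over cells and bars exact Poisson 95% intervals. In WT and RARα-KO the clusters led by Xcl1 and by Ifitm1 stand above the granzyme cluster led by Gzmf, and RARα-TG stands at 331 CPM in the cluster led by Laptm4b.

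Rarg, the second receptor for retinoic acid, had a pattern of its own. Over the 3 genotypes it stood at 77.9 CPM in Sparc-high cells (1031 UMIs in 348 of 418 cells), 60.4 in CD4 Foxp3-positive T cells, 32.5 in CD4 Foxp3-negative T cells, 25.3 in macrophages, 8.46 in CD8 T cells and 3.57 in dendritic cells, with no UMI in 57 neutrophils (which allows up to 26.3 CPM). In WT alone CD4 Foxp3-negative T cells (18.2 CPM, 7.87 to 35.9) stood below macrophages (27.8 CPM, 15.9 to 45.1), with overlapping intervals. CD8 T cells were below CD4 Foxp3-positive T cells (edgeR log2 -2.53 ± 0.28, adjusted p = 8.11e-07), below CD4 Foxp3-negative T cells (-1.72 ± 0.31, adjusted p = 0.00162) and below macrophages (-1.89 ± 0.34, adjusted p = 6.58e-05), where 8.90%, 2.49% and 25.4% of all genes were called lower in CD8 T cells. In WT alone CD8 T cells had 11.4 CPM, inside the interval of CD4 Foxp3-negative T cells (7.87 to 35.9). The same 2 kinds had 6.30 and 27.4 CPM in RARα-KO and 9.96 and 55.2 CPM in RARα-TG. The CD4 kinds were not told apart by edgeR (-0.81 ± 0.29, adjusted p = 0.145), while Sparc-high cells were above each of the others named here, the closest being CD4 Foxp3-positive T cells (adjusted p = 0.0427). Rara and Rarg thus differed in which kinds held them: Rara was higher in CD8 T cells than in Sparc-high cells, and Rarg was higher in Sparc-high than in CD8 T cells (log2 -3.11 ± 0.24 for CD8 against Sparc-high, edgeR adjusted p = 9.98e-11). Against Sparc-high cells, 32.8% of all genes were called lower in CD8 T cells, 30.9% in each of the CD4 kinds and 26.9% in macrophages.

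Against the mean of the other kinds, Rarg was called in Sparc-high cells (edgeR log2 3.44, adjusted p = 4.71e-09), CD4 Foxp3-positive T cells (2.77, adjusted p = 5.47e-05), macrophages (2.02, adjusted p = 0.0206) and CD4 Foxp3-negative T cells (1.82, adjusted p = 0.0495). The last 2 rest on the choice of fit, being called in 8 and in 3 of 12 alternatives. Their means include neutrophils, which held no Rarg UMI. Macrophages against neutrophils stood at 8.74 and CD4 Foxp3-negative T cells against neutrophils at 8.57. Against Sparc-high cells the same 2 kinds stood at -1.22 and -1.39. In CD4 Foxp3-negative T cells Rarg was the 1 of 4 members called higher, where 20.8% of all genes were, and in macrophages the 1 of 4, where 27.6% were. Between genotypes, CD8 T cells had 11.4, 6.30 and 9.96 CPM of Rarg, with a log2 ratio of -0.86 for RARα-KO to WT (-1.42 to -0.30). The cluster led by Ifitm1 and Gzma held 19 of the 64 WT UMIs, at 30.9 CPM. CD4 Foxp3-negative T cells had 18.2, 27.4 and 55.2 CPM, a ratio of 3.03 for RARα-TG to WT (1.33 to 7.74). CD4 Foxp3-positive T cells had 30 UMIs in WT (33.8 to 71.4 CPM), 53.2 CPM in RARα-KO and 73.5 in RARα-TG, all with overlapping intervals. The cluster led by Laptm4b, in which all 3 regulatory T cell markers were detected, had the most of any T cell cluster (91.1 CPM, 102 UMIs in 275 RARα-TG cells).

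The partner receptors were less uneven. Rxrb lay between 11.5 CPM in macrophages and 33.8 CPM in Sparc-high cells, and it was higher in Sparc-high cells than in the mean of the other kinds (edgeR log2 0.65, adjusted p = 0.0103). CD8 T cells had 28.7, 24.8 and 23.2 CPM of Rxrb, and no ratio between genotypes had an interval away from 0. Rxra stood at 5.24 CPM in CD8 T cells (75 UMIs), 7.10 in Sparc-high cells, 11.5 and 16.2 in CD4 Foxp3-positive and Foxp3-negative T cells and 15.5 in macrophages, and 4 UMIs in 57 neutrophils, all of RARα-KO, gave 35.1. The filter on low counts kept Rxra out of the fit. In the edgeR fit with no filter it was lower in CD8 T cells than in macrophages (log2 -1.71 ± 0.46, adjusted p = 0.00125 over 18650 genes, 12.9% of which were called lower). In that edgeR fit macrophages were above the mean of the other kinds (1.88, adjusted p = 0.00988), where 13.0% of all genes were called higher. That mean includes dendritic cells, which held no Rxra UMI and against which macrophages stood at 7.88.

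Dendritic cells held no Rxra UMI in 101 cells, which allows up to 3.57 CPM, while the same cells had 51 UMIs of Rara and 19 of Rxrb. In the unfiltered edgeR fit they were below Sparc-high cells (adjusted p = 0.00704, with 15.8% of all genes called lower). Macrophages had 8.68, 20.7 and 12.2 CPM of Rxra from 5, 19 and 3 UMIs. Their RARα-KO to WT ratio of 2.39 (0.862 to 8.17) made Rxra the only 1 of 4 members called there, with 5.75% of all genes higher and 3.97% lower, and its interval includes 1.

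**Figure D3:**
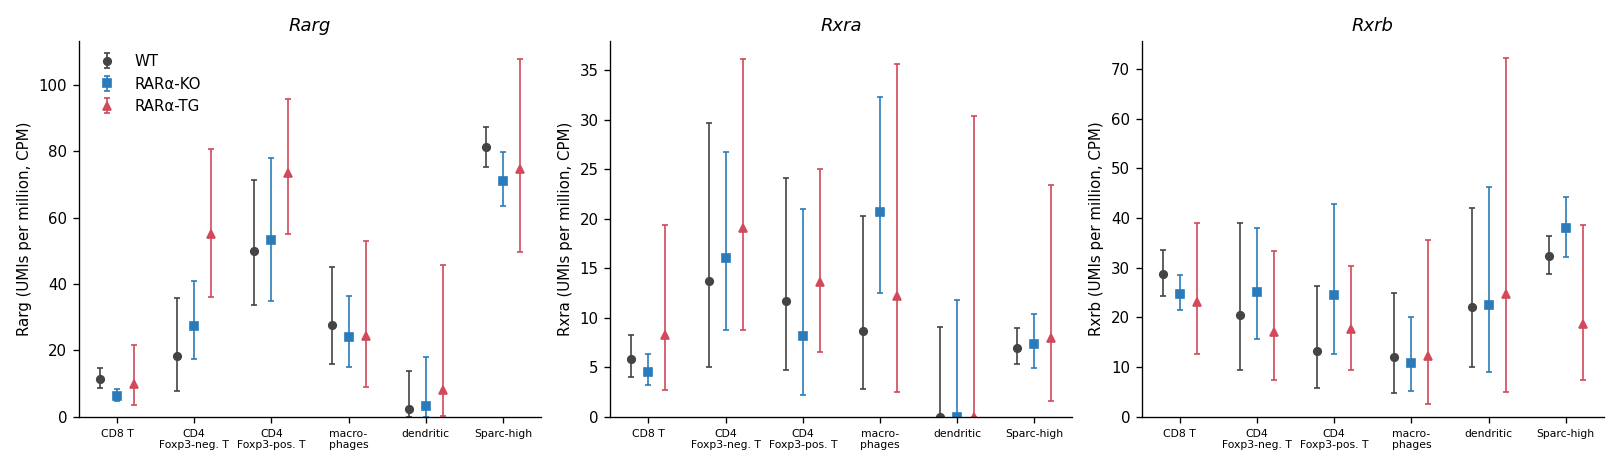
Rarg, Rxra and Rxrb in CPM (vertical axes) in 6 kinds of cells for WT, RARα-KO and RARα-TG; points are sums over cells and bars exact Poisson 95% intervals. Rarg stands at 6.30 to 11.4 CPM in CD8 T cells and at 71.2 to 81.2 CPM in Sparc-high cells, and Rxra is at 0 in the dendritic cells of all 3 genotypes.

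Crabp2, which hands retinoic acid to the receptors, was carried by Sparc-high cells. It stood at 249.9, 299.6 and 312 CPM, with a UMI in 376 of 418 cells and up to 63 UMIs in a single cell. The ratios to WT were 1.20 for RARα-KO (1.12 to 1.29) and 1.25 for RARα-TG (1.03 to 1.51), short of 2-fold. A further 21 cells of a small cluster led by Cald1 and Tnnt2, with 2053 CPM of Sparc and outside of the 7 kinds, held 43 UMIs of Crabp2 (318 CPM). Against the mean of the other kinds, Crabp2 in Sparc-high cells was called by edgeR (log2 8.26, adjusted p = 6.00e-06), which made 3 of 4 members called higher in Sparc-high cells (Rarg, Rxrb and Crabp2), where 40.7% of all genes were. Macrophages, at a median of 6455 to 6712 UMIs per cell, had no Crabp2 UMI in 238 cells. By the limit of 3 counts this allows a UMI in up to 1.26% of the cells and a level of up to 1.72 CPM, and it sets no limit on the share of cells that express the gene.

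In T cells Crabp2 sat in few cells, some of which held many copies. Over all 3944 T cells with a genotype, 28 held 96 UMIs. Of these, 49 UMIs were in 7 of the 111 RARα-TG CD4 Foxp3-negative T cells, 1 of which held 25, and the 7 cells belonged to 6 clonotypes and to the cluster led by Tnfsf8 and Tnfsf11. The level there was 104 CPM against 11.4 in WT and 1.14 in RARα-KO, a ratio of 9.13 to WT (3.66 to 29.4) whose interval treats UMIs as independent although 44 of the 49 came from 4 cells. CD8 T cells held 12 UMIs in 4 WT cells, 25 in 10 RARα-KO cells and none in 113 RARα-TG cells. The 28 T cells with Crabp2 held 1 UMI of Sparc. Free RNA held Crabp2 at 59.2 CPM, and the source of the Crabp2 UMIs in T cells was not tested. The 1093 T cells outside both the CD4 and CD8 gates had 1 UMI of Crabp2 in all.

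**Figure D4:**
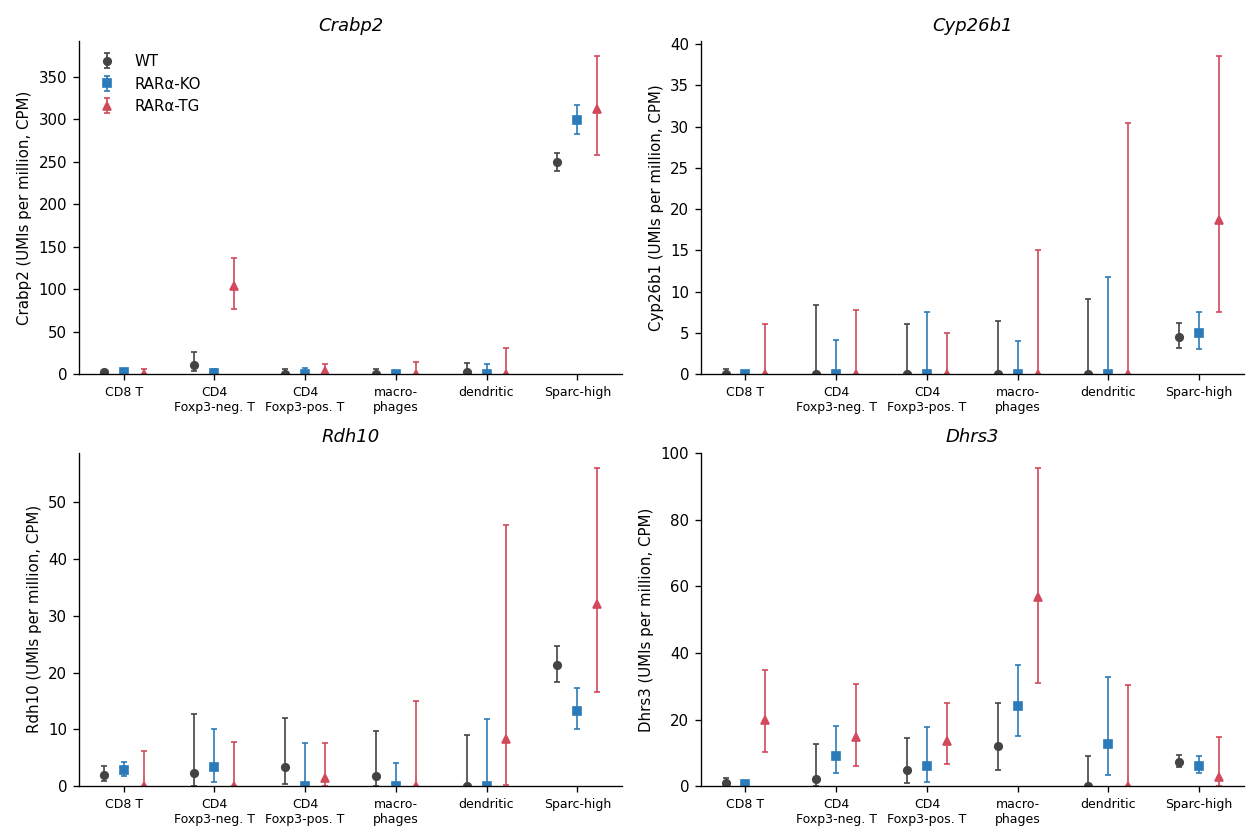
Crabp2, Cyp26b1, Rdh10 and Dhrs3 in CPM (vertical axes) in 6 kinds of cells for WT, RARα-KO and RARα-TG; points are sums over cells and bars exact Poisson 95% intervals. Crabp2, Cyp26b1 and Rdh10 are highest in Sparc-high cells, RARα-TG CD4 Foxp3-negative T cells reach 104 CPM of Crabp2 from 7 cells, and Dhrs3 is highest in macrophages.

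Aldh1a1 and Aldh1a2, the members whose enzymes make retinoic acid, were close to absent at this depth. Aldh1a3, from the list of retinoid oxidation and reduction taken up below, had fewer than 20 UMIs over all cells. Aldh1a1 had 2 UMIs in 2 RARα-KO Sparc-high cells and none elsewhere. Aldh1a2 had 2 UMIs in the 101 dendritic cells, 1 of WT and 1 of RARα-KO, both in the cluster led by Fscn1 and Ccl22, genes of activated dendritic cells. The other kinds held none, which allows up to 0.210 CPM of Aldh1a2 in CD8 T cells, 1.72 in macrophages and 0.227 in Sparc-high cells. With 49 cells in the cluster led by Siglech and 52 in that led by Fscn1, a difference between genotypes was not detectable.

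Rdh10, which makes the precursor retinaldehyde, was found mainly in Sparc-high cells (253 UMIs in 166 of 418 cells, 19.1 CPM, interval 16.8 to 21.6). CD8 T cells had 2.38 CPM (34 UMIs) and macrophages 0.575 CPM (1 UMI), and in the unfiltered edgeR fit Sparc-high cells were above the mean of the other kinds (log2 4.36 ± 0.53, adjusted p = 2.38e-15, with 28.6% of all genes called higher). Among Sparc-high cells the levels were 21.4, 13.3 and 32.0 CPM, with a RARα-KO to WT ratio of 0.619 (0.451 to 0.839) that did not reach 2-fold. The same cells had 36.2 CPM of Rara in RARα-KO against 48.4 in WT (log2 -0.42, -0.69 to -0.15).

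Dhrs3, which returns retinaldehyde to retinol, was highest in macrophages, at 12.1, 24.0 and 56.9 CPM from 7, 22 and 14 UMIs. In the unfiltered edgeR fit macrophages were above the mean of the other kinds (log2 3.58 ± 0.55, adjusted p = 2.06e-09, with 13.0% of all genes called higher). The RARα-TG to WT ratio in macrophages was 4.68 (1.77 to 13.7), the 1 of 3 members called there, with 4.44% of all genes higher and 9.73% lower. Dhrs3 passed the minimum of 20 UMIs only through its RARα-TG count. Rxra (5 UMIs in WT and 3 in RARα-TG) and Rxrb (7 and 3) did not pass, so this count does not describe the members as a set. CD8 T cells had 1.07, 0.618 and 19.9 CPM from 6, 5 and 12 UMIs, the last in 12 of 113 cells, an 18.6-fold ratio of RARα-TG to WT (6.47 to 60.5) from a total 2 UMIs short of the 20 required for a call.

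The clusters of these cells differed between genotypes, since 67 of 113 RARα-TG but 82 of 842 WT CD8 T cells were in the cluster led by Tcf7 and S1pr1. Within it, CD8 T cells held 8 UMIs of Dhrs3 in RARα-TG (20.9 CPM, 9.02 to 41.2) and none in WT or in the 53 cells of RARα-KO. CD4 Foxp3-negative T cells had 2.28, 9.13 and 14.9 CPM and CD4 Foxp3-positive T cells 5.00, 6.14 and 13.6 CPM. The T cells outside both gates had 7.59, 1.91 and 17.3 CPM, a ratio of 2.27 for RARα-TG to WT (1.05 to 5.32). RARα-TG was thus the highest of the 3 in each group of T cells, beyond counting error in CD8 T cells and in those outside the gates. Dhrs3 shares its span with Vps13d, and reads of the overlap could not be told apart here.

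Cyp26b1, which degrades retinoic acid, was found in Sparc-high cells alone among the kinds, with 67 UMIs in 38 of 418 cells. The levels were 4.51, 4.97 and 18.7 CPM from 39, 21 and 7 UMIs, the last in 3 of 19 cells, with a RARα-TG to WT ratio of 4.14 (1.56 to 9.36). In the unfiltered edgeR fit Sparc-high cells were above the mean of the other kinds (adjusted p = 6.18e-09). It was the 1 of 8 members called higher in these RARα-TG cells (6.62% of all genes were), and Dhrs3, on 1 UMI, the 1 called lower (8.45%). A further 25 UMIs of Cyp26b1 were in 16 of the 827 cells left out of the comparisons. Those 827 cells include Sparc-high cells, 85 without a hashtag and 44 hashtag doublets, so these UMIs need not come from another kind. No Cyp26b1 UMI was seen in the 2129 CD8 T cells, 373 CD4 Foxp3-negative and 349 CD4 Foxp3-positive T cells, 238 macrophages or 101 dendritic cells. At 19 RARα-TG Sparc-high cells, the values of this group rest on few cells.

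Other genes of the pathway were taken from 7 lists of 47 genes. Of those of retinoid uptake, storage and transport, Crabp1, which encodes a cellular carrier of retinoic acid, was called higher in Sparc-high cells by edgeR (log2 8.17, adjusted p = 8.46e-10). In the same cells Dgat1, an acyltransferase, and Fabp5, a fatty acid and retinoic acid binding protein, were called lower. Dgat1 was called higher in both CD4 kinds (2.12 and 2.25, adjusted p = 1.30e-05 and 4.07e-06) and, with a smaller value, in CD8 T cells (1.06, adjusted p = 0.00667). It was called lower in macrophages (-1.64) and dendritic cells (-1.60). Fabp5 was called higher in macrophages (3.45, adjusted p = 4.78e-07) and dendritic cells (3.25, adjusted p = 1.61e-06) and lower in CD8 T cells (-2.59). Rbp4 and Lrat had 0 UMIs in all cells.

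Of 13 genes of retinoid oxidation and reduction 3 were tested, and Dhrs9 and Rdh12 were called higher in neutrophils (edgeR log2 6.71 and 6.04, adjusted p = 2.12e-07 and 3.43e-05), where 7.66% of all genes were. Dhrs9 was called lower in CD4 Foxp3-positive T cells (-5.67, adjusted p = 0.0142) and Rdh12 in Sparc-high cells (-4.30, adjusted p = 0.000910). The means behind these 2 values include neutrophils, where both genes were high, which lowers the values. Rdh1 and Sdr16c5 had 0 UMIs, and neither of the 2 other Cyp26 genes reached 20. Of 3 other receptors, Rxrg had 0 UMIs and Rarb fewer than 20. Of 7 corepressors, which repress transcription at receptors, 3 were called higher in CD8 T cells, where 28.3% of all genes were. Nrip1 was called higher in CD4 Foxp3-positive T cells (edgeR log2 3.06, adjusted p = 1.04e-07), CD4 Foxp3-negative T cells (2.08, adjusted p = 0.00195) and dendritic cells (2.21, adjusted p = 0.00150). Tbl1x was called higher in Sparc-high cells (edgeR log2 2.59, adjusted p = 2.22e-06), dendritic cells (1.92) and CD4 Foxp3-negative T cells (1.74). Both genes were called lower in neutrophils (Nrip1 at -9.80, Tbl1x at -9.18), the kind with the smallest sums and a median of -1.81 over all genes. Neutrophils are part of the mean that each other kind was set against, which raises the values of both genes there. Of 7 coactivators, 2 were called higher and 2 lower in CD8 T cells, where 28.3% and 7.80% of all genes were, and 4 lower in Sparc-high cells, where 16.7% of all genes were called lower.

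Of 8 genes known as targets of retinoic acid 5 were tested between kinds. Ccr9, a gut homing receptor named like Hic1 below after its values were seen, was called higher in dendritic cells (edgeR log2 10.52, adjusted p = 2.84e-09), with 377 of its 379 dendritic UMIs in the cluster led by Siglech, and it had 12 UMIs in 2129 CD8 T cells. Tgm2, a transglutaminase, was called higher in macrophages (6.52, adjusted p = 2.67e-16) and neutrophils (7.19, adjusted p = 5.27e-13), and with smaller values in Sparc-high (2.50) and dendritic cells (2.27), and Itgb7, a gut homing integrin chain, in CD4 Foxp3-positive T cells (2.49, adjusted p = 2.79e-09). Cd38, an ectoenzyme, was higher in dendritic cells (2.51, adjusted p = 0.000182) and, with a smaller value, in CD8 T cells (1.21, adjusted p = 0.00968), and lower in Sparc-high cells. Itga4, taken up below, was called higher in dendritic cells (5.23, adjusted p = 0.000728). Stra8 had 0 UMIs.

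Between genotypes, CD8 T cells of RARα-TG had 2 of 3 target genes with enough UMIs called higher and those of RARα-KO 2 of 4, with 5.74% and 2.56% of all genes called higher. Itga4, the partner chain of Itgb7, stood at 18.0 CPM in WT, 159 in RARα-KO (8.86-fold, 7.23 to 11.0) and 124 in RARα-TG (6.91-fold, 5.06 to 9.41). Itga4 was also called higher in RARα-KO CD4 Foxp3-negative T cells (3.13-fold, 2.04 to 4.98) and in CD4 Foxp3-positive T cells of RARα-KO (13.7-fold, 5.98 to 38.7) and RARα-TG (2.72-fold, 1.05 to 8.28). It was not called in RARα-TG CD4 Foxp3-negative T cells (0.708-fold), nor in macrophages or dendritic cells of either genotype. Itgb7 stood at 98.5, 176 and 252 CPM (2.56-fold for RARα-TG, 2.12 to 3.07), and Hic1, a transcriptional repressor, at 1.43, 11.6 and 14.9 CPM from 8, 94 and 9 UMIs (8.14-fold for RARα-KO, 3.97 to 19.4). The RARα-TG value of Hic1 did not reach the UMIs required for a call. Its RARα-KO value reached them only through the RARα-KO count, so the 2 of 4 above does not describe the target genes as a set. Of the coactivators Ep300 was called in CD8 T cells of RARα-TG, with 133 CPM against 65.0 in WT (2.04-fold, 1.58 to 2.61). None of the 7 corepressors was called in CD8 T cells of either genotype.

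The genes most like a member were taken as those of highest Pearson correlation of log2(CPM + 1) over the 21 sums of kind and genotype, which all come from 1 library and differ in depth. For Rara these were Lysmd3, Safb, Uqcrfs1, Nipa2 and Sec62 (r from 0.89 to 0.91). For Crabp2 they were Islr, Etv4, Pard3, Npdc1 and Crnde (0.92 to 0.94), and for Cyp26b1 Col7a1, Ccn5, Lbp, Irx3 and Egr4 (0.99 or above). Rxra was closest to Btbd19, Cpd, Ttc39b, D230025D16Rik and Slc26a11 (0.85 to 0.88). Aldh1a2, on 2 UMIs, was closest to Il12b, Bcl2l14, Cst3, Cd209a and Ears2 (0.79 to 0.95).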

How the data were processed

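Gene, hashtag and T cell receptor reads of 1 pooled 5′ library were processed by the authors with Cell Ranger 6.1.0, and the deposited values are UMI counts per gene and barcode, not filtered for cells. All Rara counts include a transgene where there is one. The labels also name spleen and in vitro activation, and the tumor protocol was followed.

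Cells were called from 730308 barcodes (5585 cells, 96.4% of 46394322 UMIs, median 4823 per cell), genotypes and doublets with HTODemux (Seurat 5.3.0, quantile 0.99: 426 doublets and 234 cells without a hashtag left out), and clusters with scanpy 1.11.5 (2000 variable genes, 30 components, Leiden resolution 1), leaving out all retinoid and T cell receptor genes. Clusters were named from markers. T cells were split by Cd8a, Cd4 and Foxp3 UMIs. Counts were summed per kind and genotype.

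Named were all 10 members, listed genes called at 2-fold in CD8 T cells or 4-fold between kinds (at most 4 per list) and those with 0 UMIs. Genotypes (1 sample each) have no test: ratios carry exact binomial 95% intervals, 2-fold is called from 20 UMIs, and 0 UMIs allow 3. Intervals cover counting error only. Kinds were tested with edgeR 4.0.16 (TMM, quasi-likelihood, genotype as block, adjusted p under 0.05). The sums come from 1 library and the block takes out the genotype. The p-values thus rest on how far differences between kinds varied over the 3 genotypes, not on a spread between mice. Members and lists were chosen with earlier results of these data known. The edgeR test and the intervals of the ratios were each checked on simulated counts with known changes. Alternatives were other scalings, filters, gates, thinning to 1000 UMIs, DESeq2 1.42.0 and leaving out each genotype. A listed gene is not reported here.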

Additional observations from a re-analysis of the deposited data

Results flagged for a closer look

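Aldh1a2 was at or under 3 UMIs in every kind compared, yet cells left out of the comparisons held 5 UMIs in 3 cells, above the limit of 3. All were in the cluster led by Fscn1 and Ccl22: 2 hashtag doublets held 3 UMIs and 1 cell without a hashtag held 2. Over all 63 cells of that cluster, Aldh1a2 had 7 UMIs in 5 cells, and no other cluster held any. A genotype could not be given to these cells.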

How the results depend on the processing

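The Rara ratios to WT in the 3 kinds of T cells kept within their counting intervals in 49 of 54 values under 9 alternatives. The others were -0.29 for RARα-KO CD8 T cells without the granzyme cluster and, with cells thinned to 1000 UMIs, 1.48 for RARα-TG CD8 T cells, 0.78 and 1.15 for RARα-TG CD4 Foxp3-negative and Foxp3-positive T cells, and -0.92 for RARα-KO CD4 Foxp3-positive T cells (log2). On thinned counts the log2 ratio of expanded to single clonotypes was 1.46 (0.15 to 3.14) in WT and 0.89 (-0.29 to 2.38) in RARα-KO, where the interval then included 0.

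Between kinds, edgeR's counts of called genes moved by over 1.5 times in 6 of 7 kinds when a genotype was left out, with fewer sums in the fit. They ranged over 1390 to 3197 for CD8 T cells against 2911 in the full fit, 959 to 1932 for CD4 Foxp3-negative T cells against 2034, 1213 to 2051 for CD4 Foxp3-positive T cells against 2243, 1463 to 2416 for macrophages against 2394, 1095 to 2064 for dendritic cells against 1988 and 1152 to 1870 for neutrophils against 2078. Sparc-high cells stayed within 1.5 times (3461 to 4843 against 4633). Without the replicate block of genotype the counts were 2798 for CD8 T cells and 4558 for Sparc-high cells, and no member lost its call. The calls of Rara and Rarg in CD4 Foxp3-positive T cells and of Rarg and Crabp2 in Sparc-high cells held in 12 of 12 alternatives, and that of Rxrb in Sparc-high cells in 10. Rarg in CD8 T cells against the other kinds, uncalled at -0.18, ranged from -0.65 to 0.13 with a genotype left out, was 0.13 with T cells taken by clonotype, and was called by DESeq2 (-1.17, adjusted p = 0.00365). The causes were not tested. Regulatory T cells split by cluster, dendritic cells without the Siglech cluster and leaving out neutrophils were alternatives chosen after seeing the data. Depth limits Aldh1a1, Aldh1a2 and, in neutrophils, all members as well as Nrip1 and Tbl1x.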
